A study of Caenorhabditis elegans with 60 samples.

Results

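The genes described here control the germline stem cells of Caenorhabditis elegans and the switch of their daughters from mitosis to meiosis. They are named by sequence name, in a rule that uses no measured value, although earlier results of these data were known when they were chosen: glp-1 (F02A9.6), lst-1 (T22A3.3), sygl-1 (T27F6.4), fbf-1 (H12I13.4), fbf-2 (F21H12.5), puf-8 (C30G12.7), nos-3 (Y53C12B.3), gld-1 (T23G11.3), gld-2 (ZC308.1) and gld-3 (T07F8.3). All 10 were among the 22844 features of the gonad mRNA table. The small RNA data list 9 of them among the 3640 loci that the authors class as CSR-1 loci, and the small RNAs of glp-1 are not analysed here. None of the 10 was listed in the tables of developmental stages, of pos-1 RNAi, of RDE-1 immunoprecipitates or of embryos.

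The study asked what HENN-1, the methyltransferase that modifies the 3′ end of piRNAs and some other small RNAs, does for the classes of small RNA and for the germline, and it holds 60 samples in 8 sets. For these genes, 3 sets gave values. In the first, gonads were dissected from gravid adults grown for 68 to 70 h at 20 C, either wild type (N2) or henn-1(pk2295), and gave 3 mRNA and 3 small RNA libraries per genotype. For the small RNA libraries of that set the labels name dissected gonads as the source but also say that whole worms were frozen, so their tissue rests on the first of these labels. In the second, small RNAs of whole N2 or rde-1(ne219) animals were sequenced untreated or after sodium periodate, in 3 libraries per genotype and treatment. The untreated animals were L4 larvae of 52 h, whereas the oxidized libraries are called L4 in one label and gravid adults of 68 h in another. If the second label holds, oxidation and age cannot be told apart. The third set holds immunoprecipitates (IP) of HRDE-1 and WAGO-1 with their inputs, 1 library each, from whole gravid adults of 68 h. The first of these strains carried FLAG::hrde-1, and the second carried GFP-tagged and 3xFLAG-tagged wago-1 together with mut-16::mCherry. The small RNA libraries of these sets were treated with RNA polyphosphatase, which lets triphosphorylated RNAs be captured. Whether replicates came from separate cultures is not stated in the labels. The p-values therefore describe the spread among these libraries, which could be technical.

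In the worm gonad a single somatic cell at the distal end, the distal tip cell, signals through Notch to the germ cells beside it. GLP-1 is the Notch receptor on the germ cells, and lst-1 and sygl-1 are genes that it switches on. LST-1 and SYGL-1 act with the PUF proteins FBF-1 and FBF-2, which bind the 3′ ends of mRNAs such as gld-1 and repress them, so that stem cells are kept. PUF-8 is another PUF protein of germ cells, which acts with FBF-1 in the switch from sperm to oocytes. Entry into meiosis needs the opposite group: NOS-3, a Nanos protein, works with GLD-1, a KH-domain RNA-binding protein that represses translation, and GLD-3, a Bicaudal-C protein, works with GLD-2, a cytoplasmic poly(A) polymerase. Germline mRNAs are also templates for 22G-RNAs, short antisense RNAs made by RNA-dependent RNA polymerases. Those bound by the Argonaute CSR-1 match expressed germline genes, and those bound by WAGO proteins, among them WAGO-1 and the nuclear HRDE-1, go with silencing. 22G-RNAs carry no HENN-1 methyl group.

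From 4215264 to 8745475 reads per library stood behind the gonad small RNA values, with 41.8% to 45.7% of them at CSR-1 loci. The whole-animal libraries held 6311071 to 13613629 reads, of which CSR-1 loci took 7.84% to 16.9% untreated and 2.03% to 5.59% oxidized. The mRNA values were normalized by the authors, and the read depth behind them is unknown. The targeted gene checked the labels: henn-1 mRNA was 2192, 2240 and 2298 in the wild type gonads and 234, 249 and 229 in the mutant gonads. Germline markers led the gonad mRNA libraries, whereas lag-2 and hlh-12, markers of the distal tip cell, averaged 1.70 and 1.22 in wild type and 1.32 and 0 in henn-1.

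The first comparison asked whether the mRNAs of the stem cell genes differed between henn-1 and wild type gonads. Of the 10 mRNAs, 5 were lower in henn-1 gonads (limma, adjusted p under 0.05) and none was higher: the receptor glp-1, the repressor fbf-1 and the meiotic entry genes nos-3, gld-2 and gld-3. The differences were small, from 1.10-fold to 1.24-fold. Over all 8750 mRNAs tested, 19.8% were called, 12.4% lower and 7.44% higher. The mean of each of the 10 genes was below wild type, with a median log2 difference of -0.19, against 0.02 over all mRNAs tested, of which 46.2% had a difference below 0.

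The receptor glp-1 was measured at 8432, 8741 and 8606 normalized mRNA units in the wild type libraries and at 7774, 7411 and 7446 in the henn-1 libraries. All henn-1 libraries lay below all wild type libraries. The log2 difference was -0.19 (SE 0.04, adjusted p = 0.0100, n = 3 per group).

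The Notch targets had the widest errors of the 10. sygl-1 mRNA was 144, 128 and 148 in wild type and 97.6, 131 and 113 in henn-1. Its groups overlapped through 1 henn-1 library, and its log2 difference of -0.30 (SE 0.13) missed the threshold (adjusted p = 0.126). lst-1 mRNA was 681, 635 and 629 in wild type and 653, 549 and 578 in henn-1, also overlapping (log2 difference -0.13, SE 0.07, adjusted p = 0.214). The 95% interval of the sygl-1 difference ran from -0.59 to -0.01 and that of lst-1 from -0.29 to 0.03.

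Of the PUF repressors, fbf-1 alone passed the test. fbf-1 was 1363, 1378 and 1449.5 in wild type and 1176, 1064 and 1135 in henn-1. No henn-1 library reached the lowest wild type library, and the log2 difference, -0.31 (SE 0.05, adjusted p = 0.00441), was the largest of the 10. fbf-2 was 1532, 1648 and 1664 against 1427, 1391 and 1581, with 1 henn-1 library inside the wild type range (log2 difference -0.14, SE 0.06, adjusted p = 0.103). FBF-1 and FBF-2 come from near-identical genes, so the authors' counting may have split reads between them, and the difference between their changes was not tested. puf-8 was 3189.7, 3123 and 2955 in wild type and 2939, 3050.1 and 3009 in henn-1. These groups overlapped, and the interval of the log2 difference (-0.04) ran from -0.13 to 0.05.

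The meiotic entry genes were lower in henn-1 gonads in all 4 cases by their means, and 3 passed the test. nos-3 was 1909, 1856 and 1978 in wild type and 1597, 1507 and 1657 in henn-1, 2 groups well apart (log2 difference -0.27, SE 0.05, adjusted p = 0.00606). gld-2 was 1565, 1422 and 1484 against 1344, 1255 and 1270.1 (log2 difference -0.21, SE 0.05, adjusted p = 0.0178), again without overlap. gld-3 was 5025, 5064 and 4945 against 4662, 4427 and 4527, with tight groups and a smaller log2 difference of -0.14 (SE 0.04, adjusted p = 0.0221). gld-1 was 3332, 2726 and 2903 in wild type and 2550.1, 2654 and 2593 in henn-1. The gld-1 groups did not overlap, yet the spread within wild type left the log2 difference of -0.20 (SE 0.06) short of the threshold (adjusted p = 0.0579).

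**Figure D1:**
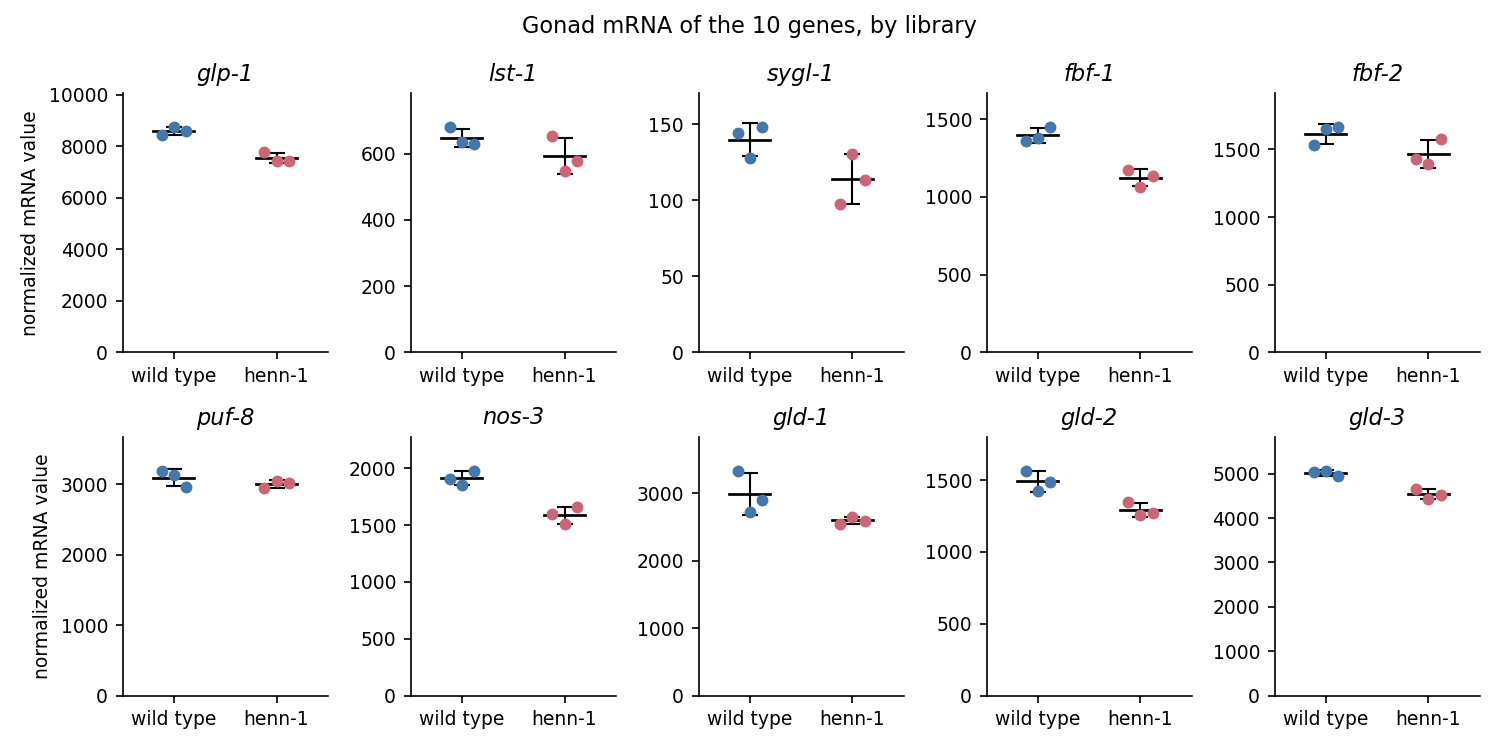
Normalized mRNA values (y axis, from 0) of the 10 genes in the 3 wild type and 3 henn-1 gonad libraries. Points are libraries in replicate order, the horizontal line is the mean and the bar is 1 SD. The henn-1 points of glp-1, fbf-1, nos-3, gld-1, gld-2 and gld-3 all lie below the wild type points, as do 21.3% of all mRNAs tested.

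Other RNAs moved in the same libraries, where 12.4% of all mRNAs tested were lower and 7.44% higher. Among 12 germline markers 8 were lower in henn-1 and none higher, with a median log2 difference of -0.17, close to the -0.19 of the stem cell genes. Their summed level ran from 97849 to 104626 in wild type and from 87134 to 89007 in henn-1. Of 11 muscle markers tested 8 were higher, with sums of 1218 to 1452 in wild type and 2028 to 2793 in henn-1. Of 3 sheath cell and other somatic gonad markers tested, inx-8 and inx-9 were higher, and the 6 listed summed to 1201 to 1288 and 1403 to 1596. Sperm markers, of which none passed the test, summed to 653 to 957 in wild type and 737 to 1261 in henn-1, highest in wild type replicate 2 and henn-1 replicate 3. Of the intestine, epidermis and neuron markers tested, 6, 1 and 3 in number, none passed the test. The part of these shifts in the lower stem cell mRNAs was not tested. In tissue libraries fewer cells of a type and less RNA per cell cannot be told apart.

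The count of 5 rested on single libraries in part. Without wild type replicate 3, or without henn-1 replicate 2, 3 of the 10 passed the test, namely glp-1, fbf-1 and nos-3, where 7.88% and 7.71% of all mRNAs did. Without both sperm-rich libraries 4 passed, namely fbf-1, nos-3, gld-2 and gld-1, with glp-1 at an adjusted p of 0.0558, and 11.4% of all mRNAs passed. Under each of these settings all 10 differences stayed below 0.

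Genes that work with the stem cell genes were read from lists of pathway members. Of 13 tested Notch pathway genes, 3 were lower and 1 higher in henn-1 gonads (median log2 difference -0.04), against 12.4% lower and 7.44% higher over all mRNAs tested. sup-17, which encodes the ADAM protease that cuts the Notch receptor, went from 3418 ± 102 to 2863 ± 87.6 (log2 difference -0.26, SE 0.04, adjusted p = 0.00419, SD over n = 3). lag-1, the transcription factor through which GLP-1 acts, went from 1286 ± 30.4 to 1088 ± 33.3 (-0.24, adjusted p = 0.00742). sel-10, an F-box protein that lowers Notch activity, had a log2 difference of -0.16 (adjusted p = 0.0196). hop-1, a presenilin of the protease complex that releases the Notch intracellular domain, went the other way, from 1085 ± 24.3 to 1193 ± 26.5 (0.14, adjusted p = 0.0466).

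Of 23 partners of the meiotic entry genes and sex determination genes, 9 were lower and none higher (median log2 difference -0.14), where 12.4% of all mRNAs were lower. let-711, the scaffold of the CCR4-NOT deadenylase, went from 9419 ± 386 to 7803 ± 178 (-0.27, SE 0.04, adjusted p = 0.00371). atx-2, an ataxin-2 relative that acts in germline proliferation, had a log2 difference of -0.32 (SE 0.06, adjusted p = 0.00927). gls-1, a partner of GLD-3, had one of -0.23 (adjusted p = 0.0104), and gld-4, a second poly(A) polymerase of germ cells, one of -0.22 (adjusted p = 0.0134).

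The mRNAs listed as targets of the FBF and GLD-1 proteins were called in small numbers, where 12.4% of all mRNAs were lower and 7.44% higher. Of 11 FBF targets 2 were lower and 1 higher (median -0.07): the kinase genes egl-4 (-0.16, adjusted p = 0.0267) and mpk-1 (-0.14, adjusted p = 0.0329), and the meiotic axis gene htp-2 (0.15, adjusted p = 0.0458). fem-3, the sex determination gene for whose binding FBF is named, had a log2 difference of -0.13 (adjusted p = 0.0569). Of 9 GLD-1 targets 2 were lower (median -0.09). The yolk receptor gene rme-2 went from 33301 ± 542 to 28084 ± 898 (-0.25, SE 0.04, adjusted p = 0.0069), and the cyclin E gene cye-1 had a log2 difference of -0.13 (adjusted p = 0.0308). The other 2 named by rule, puf-5 and oma-2, had log2 differences of -0.14 (adjusted p = 0.0774 and 0.0955).

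The second comparison asked whether 22G-RNAs of the same genes differed in the gonads. None of the 9 genes was called (limma on the deposited scale), and 2, lst-1 and nos-3, had an unadjusted p under 0.05. Among all 9456 small RNA features, 57.9% were called, and among the 3542 CSR-1 loci tested 14% were, 8.95% higher and 5.05% lower. The median log2 difference of the 9 genes was 0.00, and that of the CSR-1 loci 0.04. Behind each value of these genes stood 82 to 2001 reads per library.

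The Notch targets sat at both ends of the set. For lst-1, 22G-RNAs were 91.3, 107 and 109.5 normalized units in wild type and 115, 138 and 130.3 in henn-1. The henn-1 libraries were all higher, but the log2 difference of 0.31 (SE 0.13) missed the threshold (adjusted p = 0.0623). For sygl-1 they were 257, 218 and 206 in wild type and 183, 208 and 193 in henn-1. These groups overlapped through 1 henn-1 library (log2 difference -0.22, SE 0.11, adjusted p = 0.109).

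Of the meiotic entry genes, nos-3 was nearest to a call. Its 22G-RNAs were 818, 786 and 861 in wild type and 929.6, 872 and 940.3 in henn-1, without overlap (log2 difference 0.15, SE 0.06, adjusted p = 0.0596). gld-1 was 592, 591 and 576 against 610.2, 659 and 649.6 (0.12, adjusted p = 0.110), and gld-3 was 383, 408 and 389 against 433, 408 and 429.5 (0.11, adjusted p = 0.205). Both were higher in every henn-1 library, for gld-3 by a small margin. gld-2, at 812, 785 and 788 against 775, 843 and 769, had a log2 difference of 0.00 with an interval from -0.14 to 0.14. The groups of 4 genes were apart in all, where 29.8% of CSR-1 loci were.

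The 22G-RNAs of the PUF genes had differences near 0. How reads shared by the near-identical fbf-1 and fbf-2 were counted is not stated, which bears on all their small RNA values. fbf-1 was 921, 988 and 1051 in wild type and 948, 991 and 926 in henn-1 (log2 difference -0.05, interval -0.19 to 0.10). fbf-2 was 1066, 1091 and 1269 against 1066, 1134 and 1176 (-0.02, interval -0.19 to 0.16). puf-8 was 687, 752 and 654 against 620.4, 736 and 664 (-0.05, interval -0.24 to 0.13). In all 3 the groups overlapped.

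**Figure D2:**
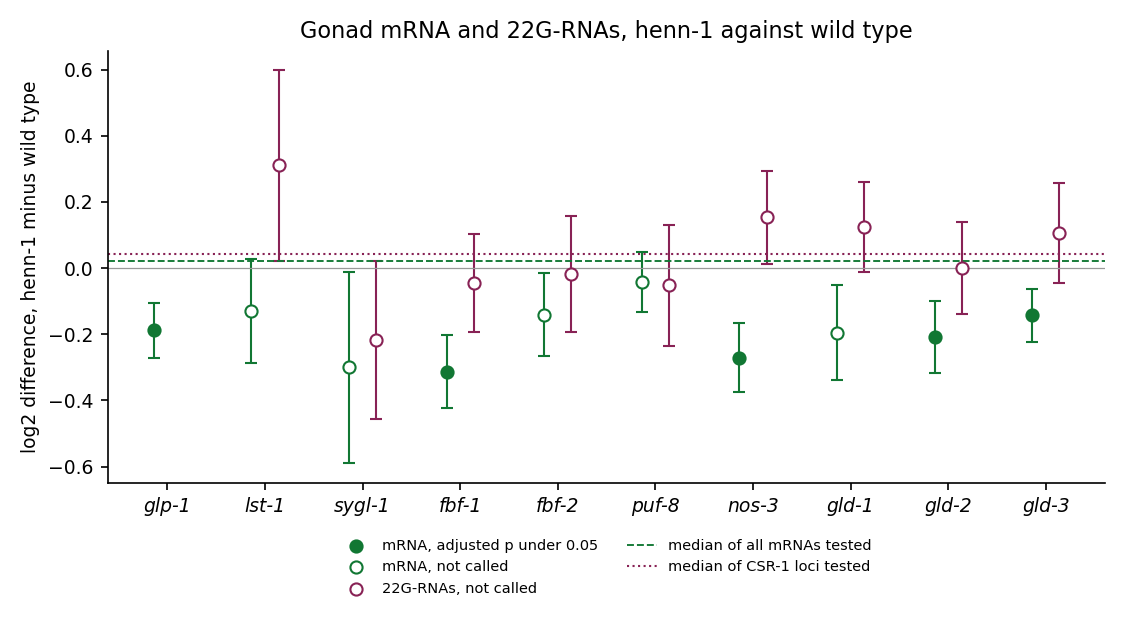
Log2 differences, henn-1 minus wild type (y axis), for gonad mRNA and gonad 22G-RNAs of each gene, with 95% intervals from limma (n = 3 per group). Filled points had an adjusted p under 0.05. All 10 mRNA points lie below 0, and the 9 22G-RNA points spread on both sides of the CSR-1 median of 0.04.

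The count of 22G-RNA calls depended on the scale. Trimmed-mean (TMM) factors moved the median of all CSR-1 loci to -0.21, and 47.0% of them were then called, nearly all lower. On that scale 5 of the 9 genes were lower, namely sygl-1 (-0.48), puf-8 (-0.31), fbf-1 (-0.31), fbf-2 (-0.28) and gld-2 (-0.26), and the median of the 9 was -0.26. edgeR's quasi-likelihood test on the recovered reads, with 29.4% of CSR-1 loci called, gave the same count of 5 lower. It also used TMM factors, so it is no separate check of the scale. With every library scaled to the same median of CSR-1 loci, none of the 9 was called. The direction of gld-1, gld-3 and nos-3 turned below 0 under TMM factors, without a call.

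The pathway lists held calls in both directions, beside the 57.9% of all features and 14% of CSR-1 loci that were called. Of 9 tested Notch pathway genes 2 were lower, and both are WAGO loci: 22G-RNAs of lag-2, the ligand of GLP-1, went from 119.8 ± 9.09 to 22.0 ± 8.03 (log2 difference -2.46, SE 0.27, adjusted p = 2.2e-05), and those of adm-4, a metalloprotease, from 343 ± 30.9 to 149.6 ± 18.6 (-1.20, adjusted p = 8.6e-06). Of 18 partners of the meiotic entry genes 5 were higher and 3 lower, where 8.95% of CSR-1 loci were higher and 5.05% lower. cpb-1, a cytoplasmic polyadenylation protein that acts in sperm formation and a WAGO locus, went from 645 ± 28.2 to 977 ± 21.8 (0.60, adjusted p = 1.2e-05), and let-711 from 1009 ± 16.6 to 1225 ± 82.6 (0.28, adjusted p = 0.00355). None of 7 FBF targets was called, with egl-4 at 0.20 (adjusted p = 0.0591) and htp-2 at 0.13 (adjusted p = 0.0820). Of 8 GLD-1 targets 2 were lower: puf-5, a PUF gene of oocytes (-0.49, SE 0.08, adjusted p = 0.000382), and rme-2 (-0.24, adjusted p = 0.00852).

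The share of CSR-1 reads held by each gene allowed a description across gonads, larvae and adults, which lie in tables normalized separately and were not tested against each other. lst-1 held 0.0049% ± 0.0005 of CSR-1 reads in wild type gonads, 0.0061% ± 0.0006 in henn-1 gonads, 0.0102% ± 0.0003 in wild type L4 larvae and 0.0120% ± 0.0024 in rde-1 larvae (SD, n = 3). sygl-1 ran the other way, with 0.0109% ± 0.0014 in wild type gonads, 0.0092% ± 0.0007 in henn-1 gonads, 0.0048% ± 0.0016 in wild type larvae and 0.0048% ± 0.0008 in rde-1 larvae. In the whole-adult inputs, lst-1 held 0.0056% and 0.0100% and sygl-1 0.0164% and 0.0157% (1 library each). Thus sygl-1 held more CSR-1 reads than lst-1 in every gonad library and in both adult inputs, and fewer in all 6 untreated larval libraries. Gonads, larvae and adult inputs each come from a set of their own, so tissue, age, strain and set cannot be told apart. The order of a pair of genes depends on transcript length, so that only its change is described.

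The other genes differed in the same description. puf-8 held 0.0334% ± 0.0030 in wild type gonads and 0.0556% ± 0.0034 in wild type larvae. gld-1 held 0.0281% ± 0.0010 and 0.0565% ± 0.0039, and gld-3 0.0188% ± 0.0009 and 0.0247% ± 0.0027, also without overlap. nos-3 had the reverse order, 0.0393% ± 0.0010 in gonads and 0.0275% ± 0.0024 in larvae, and so, by a narrow gap, had gld-2, with 0.0381% ± 0.0011 and 0.0338% ± 0.0031. The libraries of fbf-1 (0.0472% ± 0.0026 and 0.0540% ± 0.0070) and fbf-2 (0.0546% ± 0.0043 and 0.0580% ± 0.0011) overlapped between gonads and larvae.

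**Figure D3:**
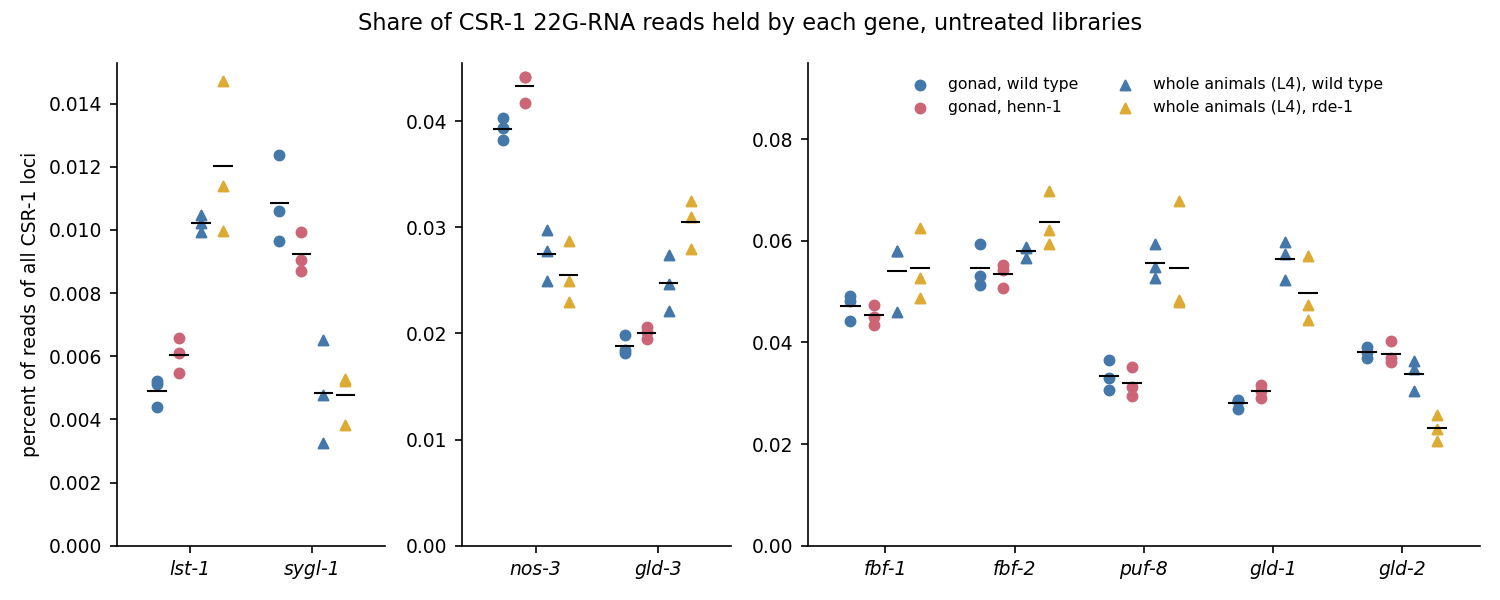
Percent of the reads of all CSR-1 loci (y axis, from 0, on a scale of its own per panel) held by each gene in untreated libraries. Circles are gonad libraries, triangles are whole-animal L4 libraries and lines are means (n = 3 per group). The lst-1 triangles lie above its circles, and the sygl-1 triangles lie below its circles.

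The third comparison asked how the 22G-RNAs of these genes responded to sodium periodate, which blocks the cloning of RNAs without a methylated 3′ end. In wild type animals 8 of the 9 genes were lower after oxidation, with log2 differences from -1.93 (nos-3) to -2.66 (puf-8) and a median of -2.33. Among all 12383 small RNA features tested 77.8% were called, and among the 3376 CSR-1 loci 91.9% were called and 91.6% were lower and called, with a median of -2.37, so the count of 8 in 9 is near that background. In rde-1 animals, which carry a mutation in the Argonaute that starts RNAi from double-stranded RNA, 9 of 9 were lower, from -1.09 (lst-1) to -1.86 (sygl-1), with a median of -1.41. Of 12034 features in rde-1, 57% were called, and of 3404 CSR-1 loci 67.8% were called and 67.4% were lower and called, with a median of -1.41.

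In wild type the most precise of these values was that of puf-8. Its 22G-RNAs were 458, 529 and 649 in untreated wild type and 83.3, 78.5 and 92.7 after oxidation, far below every untreated library (log2 difference -2.66, SE 0.19, adjusted p = 7.8e-06). In rde-1 they were 445, 750.2 and 720.0 and then 160.5, 206 and 198 (-1.73, SE 0.26, adjusted p = 0.000691). gld-1 was 454, 555 and 655 in wild type and 109.9, 101 and 64.6 oxidized (-2.60, SE 0.25, adjusted p = 4e-05). In rde-1 it was 439, 632 and 663 and then 183, 216 and 249 (-1.41, SE 0.24, adjusted p = 0.00142). In both genes and both genotypes the groups were far apart.

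The Notch targets had few reads after oxidation. sygl-1 was 56.8, 31.4 and 52.1 in wild type and 0, 17.6 and 21.8 oxidized, where the 0 stands for no read in a library of 6470120. The 3 oxidized libraries were below the untreated ones, but their log2 difference of -2.62 (SE 1.14) missed the threshold (adjusted p = 0.0621), and without the library at 0 it was -1.17 (adjusted p = 0.0388). In rde-1, sygl-1 was 35.5, 58.3 and 77.9 and then 18.4, 11.7 and 13.7 (-1.86, SE 0.59, adjusted p = 0.0253). lst-1 was 91.0, 98.7 and 109 in wild type and 17.7, 52.7 and 9.34 oxidized, from 10 to 51 reads a library (-2.20, SE 0.58, adjusted p = 0.00883). In rde-1 it was 106, 110.5 and 219 and then 50.3, 61.9 and 83.0 (-1.09, SE 0.41, adjusted p = 0.0461).

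nos-3 was 217, 268 and 325 in wild type and 44.3, 88.9 and 83.3 oxidized (-1.93, SE 0.31, adjusted p = 0.000711). In rde-1 it was 213, 318 and 371 and then 69.6, 51.4 and 178, with 1 oxidized library close to the untreated ones (-1.75, SE 0.46, adjusted p = 0.0113). The remaining 4 genes, fbf-1, fbf-2, gld-2 and gld-3, had log2 differences from -2.10 to -2.39 in wild type and from -1.12 to -1.55 in rde-1, all called.

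**Figure D4:**
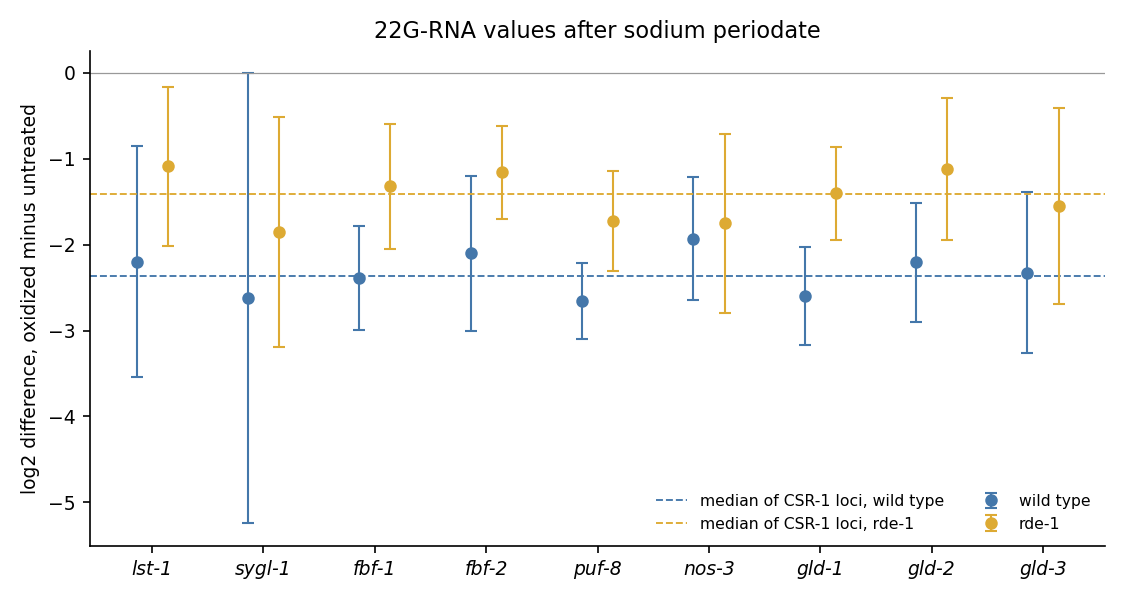
Log2 differences, oxidized minus untreated (y axis), of the 22G-RNA values of 9 genes in wild type and rde-1 animals, with 95% intervals from limma (n = 3 per group). Dashed lines are the medians of all CSR-1 loci tested, -2.37 in wild type and -1.41 in rde-1. The points of each genotype lie around its line.

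The difference between the oxidation effects of rde-1 and wild type was tested over both tables in 1 fit, in which a scale factor per table cancels. None of the 9 genes was called, by limma or by edgeR on recovered reads. Of 12248 features 0.0327% were called, and of the 3401 CSR-1 loci 0%, with 910 at an unadjusted p under 0.05 and a median log2 difference of 0.93. The median of the 9 genes was 0.94. With edgeR on recovered reads the medians of the 9 genes and of the CSR-1 loci were 0.54 and 0.52, and with every library scaled to the same CSR-1 median they were 0.21 and 0.12. On the deposited scale 4 genes had an unadjusted p under 0.05: gld-1 (1.19, SE 0.35, adjusted p = 0.180), puf-8 (0.93, SE 0.33, adjusted p = 0.223), fbf-1 (1.07, SE 0.45, adjusted p = 0.285) and gld-2 (1.09, SE 0.50, adjusted p = 0.317). nos-3 had the smallest difference, 0.18 (SE 0.60, adjusted p = 0.919), with an interval from -1.13 to 1.48.

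The rde-1 oxidation count depended on a single library, and neither count outlasted a scale that removes the shift of the CSR-1 class. With every library scaled to the same median of CSR-1 loci, none of the 9 genes was called in wild type or in rde-1. The genes fell about as much as their class, so that scale cannot show whether they fell on oxidation. On that scale 12.71% and 4.52% of CSR-1 loci were called. With TMM factors 90.9% and 70.9% were, and at equal library totals 92.4% and 76.1%. Without untreated rde-1 replicate 3, in which CSR-1 loci took 16.9% of reads, 4 of the 9 genes were called in rde-1, namely fbf-1, fbf-2, puf-8 and gld-1, and 39.2% of CSR-1 loci were.

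The IP libraries set the genes' 22G-RNA values in HRDE-1 or WAGO-1 IP beside those of the input, in 1 library each and so with no test. No source used here gives their scaling, the reads behind the values were not recovered, and no IP from untagged animals was used here. Bound 22G-RNAs and background in the IP therefore cannot be told apart. Ratios were summarized over loci with a value of at least 10 in IP or input. The median ratio of IP over input for HRDE-1 was 0.566 at CSR-1 loci and 1.38 at WAGO loci. With WAGO-1 the medians were 0.644 and 1.304. For HRDE-1, 8 of the 9 genes had a ratio under 1, as had 94.6% of 2804 CSR-1 loci, and for WAGO-1 9 of 9 had, as had 71% of 2661.

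lst-1 was the only 1 of the 9 genes with ratios on opposite sides of 1. Its 22G-RNA value went from 9.22 in the HRDE-1 input to 11.4 in the HRDE-1 IP, a ratio of 1.24 that lay at percentile 97.7 of CSR-1 loci. In the WAGO-1 pair it went from 12.72 to 3.26, a ratio of 0.257 at percentile 6.28. Both pairs rest on low values. The percentiles were taken among CSR-1 loci with a value of at least 10 in IP or input. lst-1 entered through its IP alone for HRDE-1 and through its input alone for WAGO-1. Near that cut the filter itself favours extreme ratios, so neither percentile shows that lst-1 is unusual. With a pseudocount of 10 its WAGO-1 log2 ratio went from -1.69 to -0.78, above those of fbf-1 (-1.28), fbf-2 (-1.27), gld-1 (-1.18), nos-3 (-1.06) and puf-8 (-0.81). sygl-1 went from 26.9 to 18.3 with HRDE-1 (ratio 0.681) and from 20.1 to 14.6 with WAGO-1 (ratio 0.730), both above the CSR-1 medians.

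The PUF genes and the meiotic entry genes had ratios under 1 with both Argonautes, and all 7 but gld-2 had the lower ratio with WAGO-1. For HRDE-1 the ratios were 0.500 for fbf-1, 0.482 for fbf-2, 0.555 for puf-8, 0.674 for nos-3, 0.456 for gld-1, 0.526 for gld-2 and 0.641 for gld-3. For WAGO-1 they were 0.306 for fbf-1, 0.322 for fbf-2, 0.492 for puf-8, 0.384 for nos-3, 0.302 for gld-1, 0.578 for gld-2 and 0.596 for gld-3. All 7 WAGO-1 ratios were under the CSR-1 median, and gld-1 had the lowest HRDE-1 ratio of the 9 genes.

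**Figure D5:**
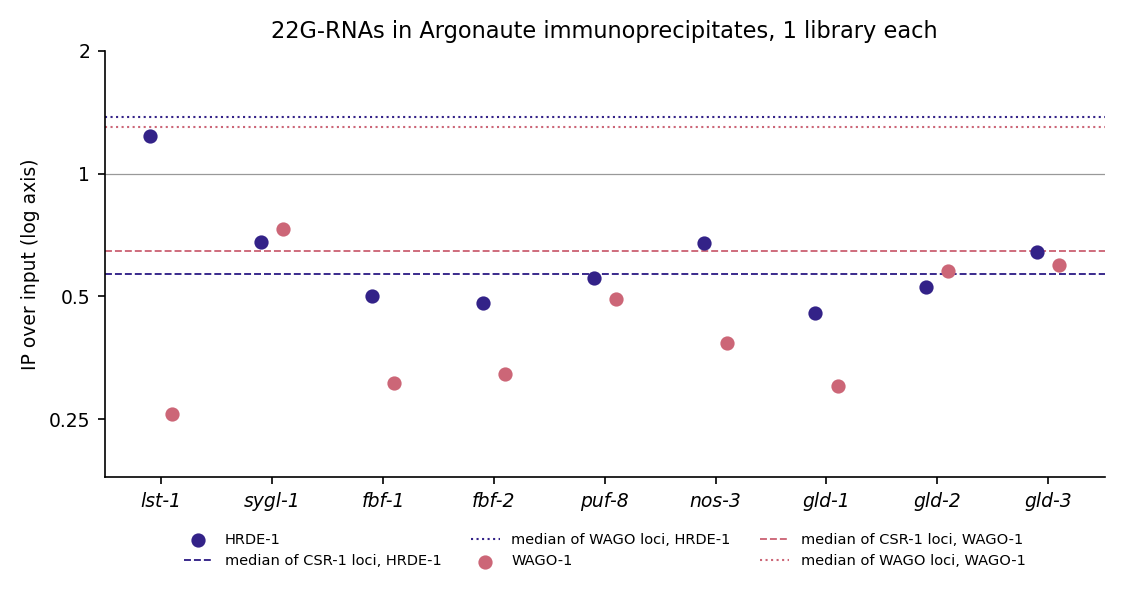
Ratio of IP over input (y axis, log scale) of the 22G-RNA values of 9 genes for HRDE-1 and WAGO-1, 1 library each. Dashed lines are medians of CSR-1 loci (0.566 and 0.644) and dotted lines medians of WAGO loci (1.38 and 1.304). lst-1 lies near the WAGO median for HRDE-1 (1.24) and lowest of the 9 raw ratios for WAGO-1 (0.257), both from low values.

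Likeness to other genes was measured as the distance between the log2 differences of the 2 gonad and 2 oxidation comparisons, over 4447 genes tested in all of them. For fbf-1, with log2 differences of -0.31, -0.05, -2.39 and -1.32, the nearest genes were hsp-4, a chaperone of the endoplasmic reticulum (distance 0.0810), pgl-3, a P granule protein (0.0840), and sas-7, a centriole protein (0.0863). For nos-3, with -0.27, 0.15, -1.93 and -1.75, they were daz-1, an RNA-binding protein of the DAZ family (0.106), erfa-3, a translation release factor (0.114), and abcf-2, an ATP-binding protein (0.117). The SE of the 2 oxidation differences was 0.26 and 0.32 for fbf-1 and 0.31 and 0.46 for nos-3. These exceed the distances, so the choice of nearest genes is uncertain. Among the 9 genes themselves the closest pair was fbf-2 and gld-2 (0.129). Over all genes, however, gld-2 ranked only 17 in nearness to fbf-2, and fbf-2 ranked 15 in nearness to gld-2.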

How the data were processed

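Per the submitters' processing notes, RSEM 1.3.0, STAR 2.5.0a, Trimmomatic 0.35 and DESeq2 1.18.1 belong to gonad mRNA, and DESeq2 1.18.1 also to gonad and oxidation small RNAs. No source used here gives the small RNA aligner or the genome build. The deposited tables hold a normalized signal per feature, with unstated scaling for immunoprecipitates. Each library's gonad and oxidation small RNA values came out as whole reads for 100% of values (tolerance 0.1).

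With limma 3.58.1 (trend) in R 4.3.3, log2(value + 1) was fitted where a feature's mean reached 10, so fold changes of low features are understated. P-values were Benjamini-Hochberg adjusted over all features, and called means under 0.05. Oxidation was compared between genotypes by interaction. Replicate numbers were not used as a block in the main fits, since same-numbered libraries did not deviate together throughout. Whether they were paired is not settled by this. Alternatives were another pseudocount, no filter, TMM factors, equal totals, the block, left-out libraries and, chosen after seeing the data, edgeR 4.0.16 on recovered reads, equal CSR-1 medians and leaving out 2 sperm-rich libraries. The script passed a test on simulated data with 2-fold changes, which are larger than the mRNA differences of the members. False calls were counted there but set no condition for passing.

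Members and lists were chosen with earlier results of these data known. Named genes were all 10 members, up to 4 per pathway list of lowest adjusted p in gonad mRNA and up to 2 in 22G-RNAs, and the 3 nearest genes of 2 members. The planned embryo test was not run, as no member was listed.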

Additional observations from a re-analysis of the deposited data

Results flagged for a closer look

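The 22G-RNAs of lst-1 had an IP over input ratio of 1.24 for HRDE-1 and of 0.257 for WAGO-1, the only 1 of the 9 genes whose ratios lay on opposite sides of 1. The difference was not tested, since each value comes from 1 IP and 1 input library. Both pairs rest on low values, 9.22 in input and 11.4 in IP for HRDE-1, and 12.72 and 3.26 for WAGO-1. In each pair only 1 library reached the cut of 10, so the ratios do not show that lst-1 is unusual. Groups of 3 libraries are too small for a check of single outlying libraries.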

How the results depend on the processing

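The count of 5 lower mRNAs was 5 with a pseudocount of 10, without the filter, with TMM factors and with the replicate block. Of all mRNAs tested, 19.6%, 8.01%, 20.8% and 16.6% were called in these settings, in that order. The count was 4 with equal library totals (18.5% of all mRNAs) or without both sperm-rich libraries (11.4%). It was 3 to 6 when single libraries were left out (7.71% to 19.7%). All 10 differences stayed below 0 under these settings. For gonad 22G-RNAs the count of 0 became 5 with TMM factors, 1 with equal totals (sygl-1, adjusted p = 0.0318) and 5 with edgeR on recovered reads. Of CSR-1 loci, 47.0%, 15.2% and 29.4% were called there. The count was 0 with the replicate block (12.8% of CSR-1 loci). Without single libraries it was 0 to 1 (8.53% to 13.5%), with nos-3 called without wild type replicate 3 and lst-1 without henn-1 replicate 1. The direction turned for gld-1 (-0.14 with TMM factors, -0.058 with edgeR), gld-3 (-0.15 and -0.079), nos-3 (-0.11 and -0.029) and gld-2 (-0.26 and -0.18, with -0.085 at equal totals and -0.019 at equal CSR-1 medians). Without single libraries fbf-2 ranged from -0.065 to 0.060, gld-2 from -0.042 to 0.024, fbf-1 from -0.094 to 6.0e-05 and puf-8 from -0.12 to 0.0048.

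Oxidation calls kept their direction except at equal CSR-1 medians, a scale that removes the shift of the class. There the count was 0 in wild type, with fbf-2 at 0.083 and nos-3 at 0.25, and 0 in rde-1, with fbf-2 at 0.19, lst-1 at 0.25, gld-2 at 0.22 and fbf-1 at 0.025. Without single libraries the counts ran from 8 to 9 in wild type (81.2% to 94.0% of CSR-1 loci) and from 4 to 9 in rde-1 (39.2% to 70.7%). With the replicate block they were 8 and 9 (91.5% and 74.1%). Without the filter the rde-1 count was 7 (57.6%). The interaction count was 0 under all settings, with the replicate block and edgeR among them. In it nos-3 turned to -0.0087 (equal totals), -0.061 (edgeR) and -0.67 (equal CSR-1 medians), sygl-1 to -0.57 (edgeR) and gld-3 to -0.063 (equal CSR-1 medians). Without single libraries nos-3 ranged from -0.34 to 0.55 and sygl-1 from -0.69 to 1.57.

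Over all features, 651 higher and 1082 lower mRNA calls became 946 and 675 at equal totals, and total calls ran from 676 to 1737 without single libraries. For gonad 22G-RNAs 3976 higher and 1501 lower calls became 3489 and 3490 with TMM factors and 3545 and 2774 with edgeR, total calls of 5477 became 9485 without the filter, and the median log2 difference went from 0.14 to -0.12 and -0.04. At equal CSR-1 medians the oxidation split went from 4322 and 5311 to 7370 and 413 in wild type (median -0.32 to 1.83) and from 3738 and 3123 to 6109 and 134 in rde-1 (median 0.03 to 1.35). The 4 interaction calls ran from 0 to 324 without single libraries, highest without oxidized wild type replicate 1.

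Same-numbered libraries did not deviate together throughout (correlations -0.60 to 0.21), so the numbers were not used as pairs. With 3 libraries per group these correlations cannot show whether samples were paired. In wild type oxidation each library correlated best with its own number, a hint from the data and not the design. A pseudocount of 10 moves every IP ratio towards 1 and can carry none across it, so the kept sides of the 18 ratios are no check. The ratio of lst-1 with WAGO-1 moved most (log2 -1.69 to -0.78). Apart from the scales named, the cause was not tested. Groups of 3 libraries and low reads of lst-1 and sygl-1 limit precision, and the depth of mRNA and IP libraries is unknown. The embryo alternatives were not run.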
